A study of Homo sapiens with 32 samples.

Results

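Mitochondrial tRNAs were read base by base in ac4C-seq libraries of Hep3B, a line grown from a human hepatocellular carcinoma. The positions are all those of the 22 tRNA genes of the mitochondrial genome, MT-TA to MT-TY, taken on the strand of each gene by its annotated coordinates and without regard to any measured value. They amount to 1508 of 4554670 positions and strands that had at least 30 reads in any library, 14 genes lie on the plus strand and 8 on the minus strand, and all 1508 were covered in at least 1 library and 1482 in all 32. The series mapped N4-acetylcytidine (ac4C), the product of the acetyltransferase NAT10, to ask how the helicase and acetyltransferase (GNAT) domains of NAT10 contribute to it. RNA was divided into a mock fraction, treated with acid alone, and a fraction treated with acid and NaCNBH3, which reduces ac4C so that reverse transcriptase reads it in part as thymidine. The 32 libraries are 8 genotypes with 2 replicates of each fraction.

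For 24 h before RNA was taken all cells, the controls included, were kept in 100 nM dTAGV1, a small molecule that brings tagged proteins to degradation. Wildtype denotes parental Hep3B cells without a tag. In the other 7 genotypes endogenous NAT10 carried FKBP12-F36V at its C terminus, the tag that dTAGV1 binds. FKBP cells had the tag and no transgene, NAT10(-) cells were transduced with a control plasmid, and NAT10-WT cells with an unmutated NAT10. The transgenes K290A and E389L alter the helicase domain of NAT10, whereas G641E and H537A alter its GNAT domain. Transduced cells were selected with blasticidin, and replicates were independent transductions. Wildtype and NAT10-WT are called NAT10-competent below and the other 6 genotypes NAT10-deficient, from their labels. Wildtype and FKBP cells were neither transduced nor selected with blasticidin, so that the transgene, transduction and selection cannot be told apart in the comparison of FKBP with NAT10-WT, nor these and the tag in that of Wildtype with NAT10-WT.

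Mitochondrial tRNAs are cut out of long transcripts of both strands of the mitochondrial genome and are modified by enzymes of nuclear origin. The base at position 9 is methylated to m1A or m1G by TRMT10C, which acts with HSD17B10 and also holds the tRNA for the nuclease that cuts its 5′ end. TRMT1 makes m2,2G26, METTL8 m3C32, TRMT5 m1G37 and TRMT61B m1A58, and these groups sit on the face of the base that pairs, so that reverse transcriptase stops there or inserts a wrong base. NSUN3 and ALKBH1 make 5-formylcytidine (f5C) at the first anticodon base of tRNA-Met, and NaCNBH3 reduces f5C as well as ac4C. TRIT1 and CDK5RAP1 place ms2i6A at A37 of some mitochondrial tRNAs, and QTRT1 and QTRT2 place queuosine at G34 of others.

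Positions up to 9 are counted from the 5′ end of the gene, 26 to 38 from the anticodon (34 to 36), and 58 as 15 bases from the 3′ end. Any other base is named by its place from the 5′ end, as in base 52. The sequences below are those of the genes whose values carry the results, from chromosome M of GRCh38, on the strand of the gene and 5′ to 3′ without the CCA tail. Capitals mark the bases described in the text.
MT-TM (chrM:4402-4469, plus strand, C34): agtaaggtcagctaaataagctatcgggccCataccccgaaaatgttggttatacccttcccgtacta
MT-TK (chrM:8295-8364, plus strand, A9, C base 52, A base 54): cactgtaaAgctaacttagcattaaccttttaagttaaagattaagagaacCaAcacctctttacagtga
MT-TI (chrM:4263-4331, plus strand, G9, G26): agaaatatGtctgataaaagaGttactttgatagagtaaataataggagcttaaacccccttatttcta
MT-TQ (chrM:4329-4400, minus strand, G9, G37): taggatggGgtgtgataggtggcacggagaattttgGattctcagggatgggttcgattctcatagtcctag
MT-TL1 (chrM:3230-3304, plus strand, G9, A58): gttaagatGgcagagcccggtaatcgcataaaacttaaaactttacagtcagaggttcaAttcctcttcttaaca
MT-TS1 (chrM:7446-7514, minus strand, C32, A37, A58): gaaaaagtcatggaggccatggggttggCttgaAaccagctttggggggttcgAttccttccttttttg
MT-TT (chrM:15888-15953, plus strand, A9, C32): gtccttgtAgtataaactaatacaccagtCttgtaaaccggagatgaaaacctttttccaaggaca
MT-TH (chrM:12138-12206, plus strand, A9, G34): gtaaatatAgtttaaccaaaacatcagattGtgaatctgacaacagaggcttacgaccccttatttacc
MT-TA (chrM:5587-5655, minus strand, A9, G26, G37): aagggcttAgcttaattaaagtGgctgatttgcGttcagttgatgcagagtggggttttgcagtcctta
MT-TW (chrM:5512-5579, plus strand, A9, A37): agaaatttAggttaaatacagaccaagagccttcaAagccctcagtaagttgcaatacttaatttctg
MT-TS2 (chrM:12207-12265, plus strand, none): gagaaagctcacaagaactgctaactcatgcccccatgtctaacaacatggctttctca

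The level given below is the mismatch share, the percent of reads at a position that differ from the reference base. The depth of a mitochondrial tRNA gene, as the median over the 22, ran from 632 reads (K290A NaCNBH3 replicate 2) to 10401 reads (K290A mock replicate 1). Depth levels off at a ceiling in these tables, so that depths of MT-TM and MT-TV are lower bounds in their deepest libraries. K290A NaCNBH3 replicate 2 stood apart from its own mock fraction: tRNA genes made up 4.60% of its mitochondrial base calls, against 11.5% in the mock fraction of the same RNA. The share was lower still in H537A NaCNBH3 replicate 2, at 3.93%, where the mock fraction of the same RNA was also low, at 6.43%. NAT10 exons reached 30 reads in 16 libraries, those of NAT10-WT, K290A, H537A and G641E, and in no library of the other 4 genotypes, E389L among them, although E389L cells carry a transgene. Of 12 liver genes 7 to 12 were covered in each library, while the blood, fibroblast and endothelial markers PTPRC, COL1A1 and PECAM1 had no covered position, and the bile duct keratin KRT19 was covered in 24 libraries. Of 23 genes for mitochondrial tRNA modifying enzymes 17 were covered in none of the libraries, so that their levels are not given.

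Nuclear chromosomes hold 8 copies of 7 of these genes, identical over their whole length (MT-TA on chromosomes 1 and 14, MT-TE on chromosome 5, and MT-TK, MT-TN, MT-TQ, MT-TS1 and MT-TW on chromosome 1), and all were covered in all 32 libraries. Their median depth was 97.8% to 133% of that at the mitochondrial gene, and for MT-TW it was 943% (413% to 1482%). A9 of MT-TK had a mean mismatch share of 89.6% at the mitochondrial gene and 89.9% at the copy. A9 of MT-TW had 69.15% and 72.37%, and single libraries differed by up to 25.76 percentage points there. The largest difference in a library was 12.44 percentage points at A9 of MT-TE and 10.85 at G9 of MT-TQ. Reads of these 7 genes therefore cannot be assigned to one place, and their values are those at the mitochondrial gene.

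Most bases of the mitochondrial tRNAs read as the reference. Over the positions the median of the mean mismatch share in mock libraries was 0.0216%, and 1463 positions stayed under 1%, while G base 3 of MT-TD had no mock library with 30 reads. Another 3 positions read at 95% or more in every library and are given by their count alone. Of the remaining positions 41 had a mean of at least 1%, and 30 had a mean of at least 5%, in 20 of the 22 genes. The count of 30 includes G base 4 of MT-TD at 93.5%, a value from 1 mock library with 31 reads. Among these 30 were 26 of the 29 positions of a list of modifications known from textbooks. MT-TM and MT-TS2 had no mock position at 5%, and the highest value in MT-TS2, the serine tRNA that lacks a D arm, was 0.142%.

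Position 9 carried most of the signal. A9 reached a mean of 5% in 13 of 14 tRNAs and 50% in 10 of them, and G9 reached 5% in 5 of 5. The 3 tRNAs with a pyrimidine at position 9 stood at 0.229% (C9 of MT-TM), 0.0517% (C9 of MT-TS1) and 0.0323% (U9 of MT-TS2). A9 of MT-TK, the lysine tRNA, was the highest at 89.3% ± 0.49 (SD, n = 16 mock libraries), with a range of 88.3% to 89.9%. Below it came MT-TV at 79.0% ± 3.17, MT-TN at 76.8% ± 5.46, MT-TR at 73.6% ± 4.11, MT-TE at 71.0% ± 3.70, MT-TA at 70.7% ± 4.56, MT-TL2 at 70.3% ± 5.50 and MT-TW at 69.6% ± 8.06. A9 of MT-TH and MT-TG followed at 62.6% ± 4.61 and 62.2% ± 7.98, and A9 of MT-TP, MT-TF and MT-TD at 39.9% ± 5.48, 33.6% ± 10.97 and 18.4% ± 6.27.

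Among guanosines, G9 of MT-TQ stood at 77.8% ± 3.43, while MT-TY, MT-TL1, MT-TC and MT-TI had 30.3% ± 3.89, 27.6% ± 2.36, 25.3% ± 2.76 and 15.5% ± 1.68. In the order of the 18 positions at 5% or more, neighbours differed by more than the larger of their SDs at 3 steps: between MT-TK and MT-TV (10.3 percentage points), between MT-TG and MT-TP (22.3) and between MT-TC and MT-TD (6.94). All other neighbours lay within that spread. The exception among adenosines was A9 of MT-TT, the threonine tRNA, with a mean of 0.307% over the 14 mock libraries that covered it and no mismatch in the median library. Depth at this base was 61 to 223 reads in those libraries, after the loss of depth at U base 18 described below. Whether the reads left at A9 stand for all reads of the gene was not tested.

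**Figure D1:**
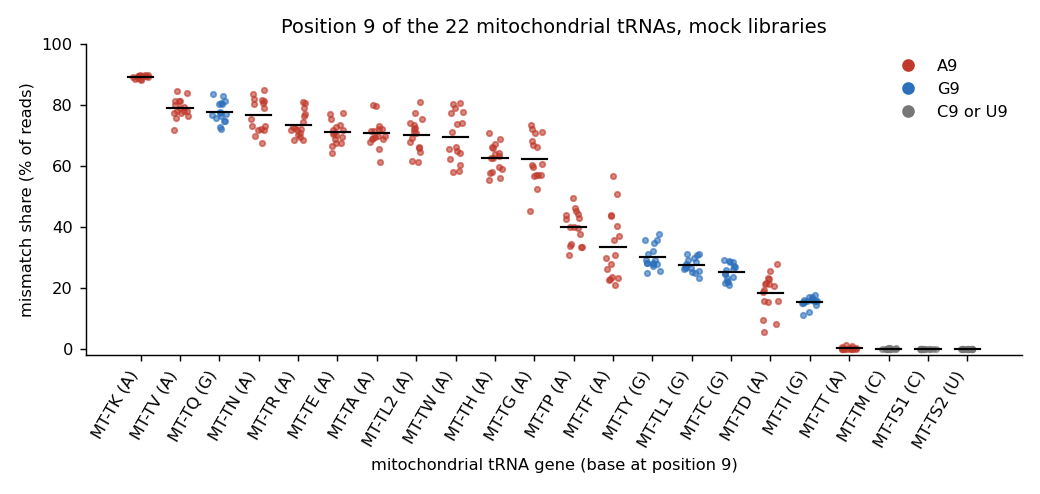
Mismatch share at position 9 (percent of reads, linear axis) for the 22 mitochondrial tRNAs, one point per mock library (16 each, fewer for MT-TT) with the mean as a bar and the base at position 9 in brackets. A9 and G9 sit between 15.5% and 89.3% on average apart from A9 of MT-TT, and the 3 tRNAs with C9 or U9 lie near 0.

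The wrong base differed between the purines. Over the 13 tRNAs with A9 at 5% or more, mismatches at A9 read as U in 44.8% to 96.6% (median 93.4%) and as G in 2.82% to 50.7%. A9 of MT-TD, the aspartate tRNA, gave the lowest share of U and the highest of G. At G9 mismatches read as C in 19.7% to 68.9% (median 63.8%) and as U in 23.4% to 68.2%. The library protocol used 2-amino-dATP in the reverse transcription, and its part in the choice of base was not tested.

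TRMT1 modifies G26 in some tRNAs, and 7 of these tRNAs have a guanosine at that position. G26 of MT-TI, the isoleucine tRNA, stood at 94.0% ± 1.14 (SD, n = 16 mock libraries, 91.5% to 95.6%) and G26 of MT-TN at 12.6% ± 3.89. G26 of MT-TR, MT-TA and MT-TE had 3.74%, 3.73% and 1.58%, and MT-TQ and MT-TS1 0.0684% and 0.0265%. The 12 tRNAs with A26 stayed at or under 0.0341%. Mismatches at G26 read mostly as A, 98.6% of them in MT-TI, 90.6% in MT-TR, 88.7% in MT-TN, 80.9% in MT-TA and 77.6% in MT-TE, and 16.4% and 17% of those in MT-TA and MT-TE read as U.

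C32, which METTL8 modifies in some tRNAs, is present in 13 tRNAs and was read with mismatches in 2 of them. MT-TS1, the serine (UCN) tRNA, had 80.2% ± 4.26 (73% to 89.4%) and MT-TT had 65.9% ± 3.70 (61.3% to 73.6%), while the other 11 stayed at or under 0.119%. These mismatches had mixed identity: at C32 of MT-TS1 50.9% read as U, 24.8% as A and 24.3% as G, and at C32 of MT-TT 74.3% read as U, 20.8% as A and 4.87% as G. At C34 of MT-TM, described below, 99.9% of mismatches read as U.

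G37, next to the anticodon and modified by TRMT5, was read with mismatches in all 4 tRNAs that hold it. MT-TP had 47.4% ± 5.22, MT-TQ 44% ± 1.38, MT-TA 30.7% ± 1.45 and MT-TL2 16.4% ± 1.01 (SD, n = 16 mock libraries each). Mismatches at G37 read as U in 61.1% to 75.4% and as C in 21.4% to 34.8%. Of 18 tRNAs with A37, that of MT-TS1 reached 1.2% and the rest stayed at or under 0.383%.

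A58, in the T loop, is present in 12 tRNAs by this count. MT-TL1, the leucine (UUR) tRNA, had 73.4% ± 2.47 (69.4% to 78.1%) and MT-TS1 12.3% ± 3.8 (7.00% to 20.8%). MT-TQ followed at 0.918% and the other 9 stayed at or under 0.25%. In MT-TK an adenosine that lies 1 base 5′ of the counted position 58 (base 54) had 9.94% ± 2.83, and 75.2% of its mismatches read as U. The length of the T arm varies among mitochondrial tRNAs, so that a count from the 3′ end can miss position 58 by a base.

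Few other bases stood out. G34 of MT-TH, one of 8 tRNAs with G34 and one of those known to carry queuosine there, had 4.06% ± 1.81 (1.32% to 6.66%), against 0.499% in MT-TN, 0.211% in MT-TD and 0.075% in MT-TY. A35 in the anticodon of MT-TL2 had 3.86% ± 0.61, of which 99.0% read as G, and the base after A9 in MT-TD (G base 10) had 4.71% ± 1.36, of which 99.9% read as A. A16 of MT-TR had 0.977% ± 0.364. Which change in the RNA, if any, underlies these low values was not tested.

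Reverse transcriptase that stops at a base lowers the depth on its 5′ side. Depth here is the sum of the A, C, G and T calls at a base, so that mismatched calls are counted in it. Whether mismatches alter the alignment, and so the depth, was not tested. For each base the drop was taken as the percent of the depth at the next base 3′ that was lost, over 1368 bases with 100 reads at the next base in at least 16 libraries, leaving out the first and last 3 bases of each gene, and the median drop was 0.138%. Of the 40 bases with a drop of 20% or more, a limit chosen after the values were seen, 19 were at base 9, 5 at base 10 and 6 at position 37. The largest outside position 9 was at U base 18 of MT-TT, 66.0% ± 4.82 (SD, n = 32 libraries). Library by library this drop lay close to the mismatch share at C32 of the same gene. The drop and the share were 75.07% and 74.99% in K290A NaCNBH3 replicate 1, and 56% and 55.38% in H537A NaCNBH3 replicate 2. They lay further apart in G641E NaCNBH3 replicate 2, at 70.85% and 68.63%. Whether the drop at U base 18 is separate from the mismatches at C32 was not tested. Among the bases left out, 12 at the 5′ end of a gene also lost 20% or more, 10 of them base 1, up to 74.6% in MT-TH. All 19 tRNAs with A9 or G9 had a mean drop there of 22.4% (MT-TN) to 90.4% (MT-TD), while the 3 with C9 or U9 had -0.0324% to 0.983%. A9 of MT-TT, with a mean mismatch share of 0.307% in mock libraries, lost 47.7% ± 6.14 of its depth (SD, n = 27 libraries).

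The order of the drops was not that of the mismatch shares. The largest drops at position 9 belonged to MT-TD (90.4%) and MT-TI (87.9%), which had the lowest mismatch shares among the A9 and G9 positions at 5% or more. A9 of MT-TK, the highest in mismatches, lost 34.8%. Over the bases before and after position 9 (bases 4 to 7 against 11 to 14), the depth that remained was 95.6% in MT-TM, 94.4% in MT-TS1 and 91.7% in MT-TS2, and 1.53% (MT-TD) to 60.6% (MT-TF) in the other 19. A drop can also come from a fragment end or the end of a mature tRNA, which was not tested, and in 25 libraries MT-TV came near the ceiling of depth, where the drop is understated.

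Position 37 showed drops in both purine classes. G37 of MT-TQ, MT-TA, MT-TP and MT-TL2 lost 40.9%, 35.6%, 26.7% and 12% of depth. Among the 18 A37 the drop was 32.7% ± 12.2 in MT-TW, 28.6% ± 7.74 in MT-TS1, 23.9% ± 6.60 in MT-TY and 18.3% ± 7.79 in MT-TF (SD, n = 32 libraries), and -0.421% to 2.52% in the other 14. These 4 tRNAs, for tryptophan, serine (UCN), tyrosine and phenylalanine, are those known to carry ms2i6A37, and 4 of the 6 tRNAs with AAA at positions 36 to 38. The remaining 2 with that motif, MT-TC and MT-TL1, lost 0.244% and 0.0506%. Drops of the other kinds were 32.5% at G26 of MT-TI, 12.5% at G26 of MT-TN, 25.8% at C32 of MT-TT and 10.7% at C32 of MT-TS1. At A58 there was little or no drop, -0.0781% in MT-TL1, where 73.4% of mock reads had a mismatch, and 1.04% in MT-TS1.

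**Figure D2:**
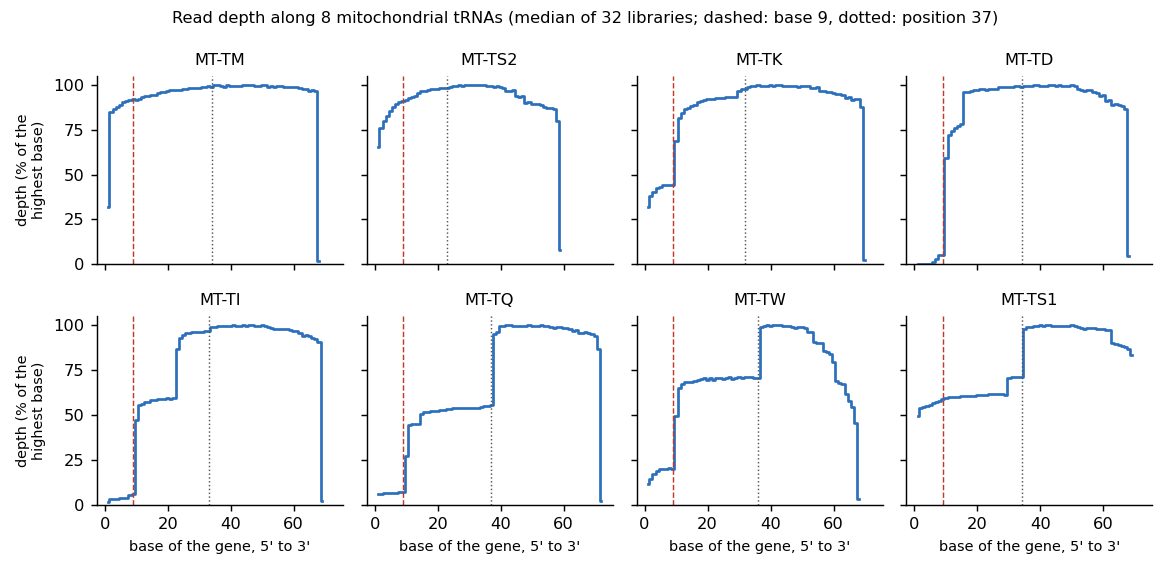
Read depth along 8 mitochondrial tRNAs, as percent of the deepest base of each gene (median over 32 libraries, linear axis) against the base counted from the 5′ end, with base 9 dashed and position 37 dotted. MT-TM, MT-TS1 and MT-TS2 show no step at base 9, while MT-TD and MT-TI lose 90.4% and 87.9% of depth there, and MT-TW and MT-TS1 step down at position 37, which is base 36 and base 34 from the 5′ end.

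Next, the effect of NaCNBH3 was examined. C34 of MT-TM, the wobble base of the methionine anticodon CAU and the f5C site (chrM:4432), changed most. In the 16 mock libraries its mismatch share was 0.208% at the lowest, 0.246% at the median and 0.966% at the highest. In the 16 NaCNBH3 libraries it was 47.1%, 52.1% and 56.8%, so that the fractions did not overlap. The log2 odds of the mismatch rose by 8.61 ± 0.14 (SE, 16 of 16 pairs higher, limma adjusted p = 1.1e-17). No mock library reached 1% here, so the position met the pooled share of 1% that the fit required only through the NaCNBH3 libraries.

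The NaCNBH3 level of C34 lay in one range in all genotypes. In NAT10-competent cells replicates 1 and 2 read 51.5% and 50.8% (Wildtype) and 53.4% and 51.9% (NAT10-WT). Tagged cells without a NAT10 transgene had 54.6% and 51.6% (FKBP) and 52.1% and 52.1% (NAT10(-)), which overlap with the competent cells. Helicase mutants had 54.1% and 47.1% (K290A) and 52.3% and 51.9% (E389L), and GNAT mutants 56.8% and 54.1% (H537A) and 52.5% and 51.0% (G641E). Replicate 1 was the higher in 8 of 8 genotypes, and genotype means ran from 50.6% (K290A) to 55.5% (H537A).

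The lowest value, 47.1% (exact 95% interval 45.8% to 48.4%, counting error only), came from K290A NaCNBH3 replicate 2, the library that stood apart. In NaCNBH3 libraries alone, the competent genotypes differed from the deficient ones by -0.04 ± 0.10 log2 odds (95% interval -0.27 to 0.19, limma adjusted p = 0.975). With both fractions averaged the difference was -0.12 ± 0.13 (-0.42 to 0.19, limma adjusted p = 0.777), and the exact two-sided permutation p over 4 against 12 RNA samples was 0.470. A difference larger than these intervals was not seen, and a smaller one cannot be told from the spread.

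**Figure D3:**
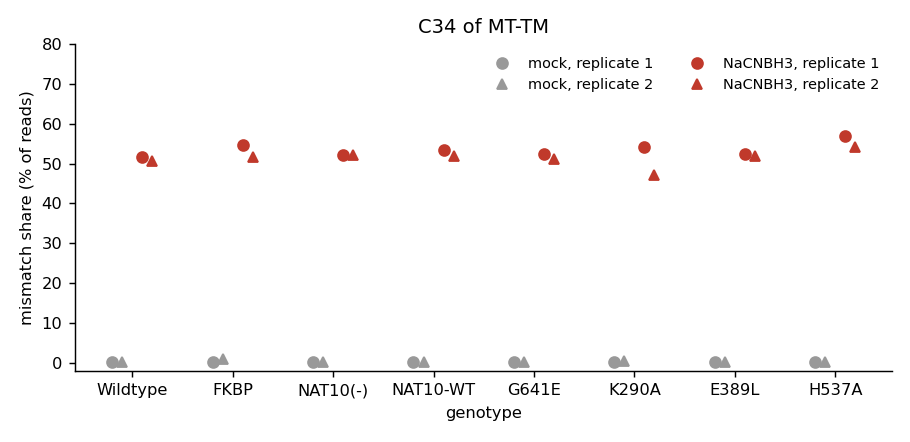
Mismatch share at C34 of MT-TM (percent of reads, linear axis) for each of 8 genotypes, with mock libraries in grey, NaCNBH3 libraries in red, circles for replicate 1 and triangles for replicate 2. Mock libraries sit at 0.208% to 0.966% and NaCNBH3 libraries at 47.1% to 56.8% in every genotype.

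Across the mitochondrial tRNAs 43 positions had 30 reads in every library and a pooled mismatch share of at least 1%, and could be fitted. Among them 4 were called in NaCNBH3 against mock, all higher, beside 8.44% of the 3106 positions fitted in the whole series. Apart from C34 of MT-TM these were small shifts at bases that are read with mismatches in mock as well. G37 of MT-TQ had a lowest, median and highest value of 40.7%, 44.1% and 45.9% in mock and 44%, 46.2% and 47.2% with NaCNBH3, and its log2 odds rose by 0.18 ± 0.04 (SE, 16 of 16 pairs higher, limma adjusted p = 0.00256). G26 of MT-TE had 1.2%, 1.44% and 2.27% in mock and 1.48%, 1.82% and 2.73% with NaCNBH3, a rise of 0.34 ± 0.07 (14 of 16 pairs, limma adjusted p = 0.0033). G37 of MT-TL2 had 14.4%, 16.4% and 18.6% in mock and 15.1%, 17.1% and 19.4% with NaCNBH3, a rise of 0.18 ± 0.05 (10 of 16 pairs, limma adjusted p = 0.040). At these 3 positions the ranges of the fractions overlapped, and the call at G37 of MT-TL2 was lost in 11 of 18 fits that left out an RNA sample or a replicate number.

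These small shifts depended on which RNA samples were used. Without K290A replicate 2, an omission chosen after the data were seen, 12 of 43 positions were called, beside 11.6% of all positions, and A9 of MT-TV and MT-TA, G37 of MT-TA and MT-TP, G26 of MT-TN and A37 of MT-TS1 were among those added. In replicate 1 alone 17 were called (17% of all positions), and in replicate 2 alone only C34 of MT-TM (2.22% of all positions). Leaving C34 aside, 34 of 42 positions were higher with NaCNBH3 in replicate 1 and 19 in replicate 2, with a median log2 odds of 0.22 and -0.02. A test of whether the NaCNBH3 effect differed between genotypes called none of the 3106 positions (limma F test), and 1 of the 43 at an unadjusted p under 0.05. With 2 RNA samples per genotype a lack of calls in this F test does not show equal effects. The rule for ac4C sites applied below picked 33 cytidines in the whole series.

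**Figure D4:**
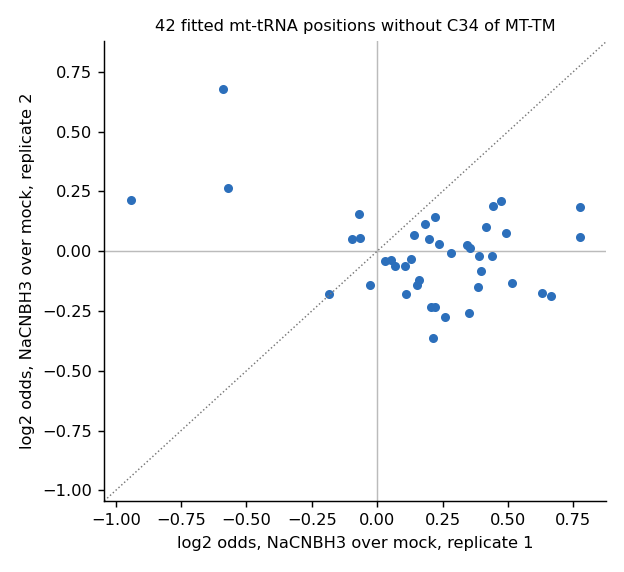
Log2 odds of the mismatch, NaCNBH3 over mock, averaged over the 8 genotypes in replicate 1 (horizontal) and replicate 2 (vertical), for the 42 fitted mitochondrial tRNA positions other than C34 of MT-TM, with the line of equality dotted. Most points lie to the right of 0 on the horizontal axis (34 of 42) and are spread on both sides of 0 on the vertical one (19 of 42 above).

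With the tests applied genotype by genotype (Fisher's exact test, called in both replicates), C34 of MT-TM was called in 8 of 8 genotypes. Other calls were few. Wildtype had 3 of 41 mitochondrial tRNA positions called (3.52% of all positions), with A9 of MT-TF and G26 of MT-TN higher, and FKBP 3 of 42 (1.87%), with A9 of MT-TF and A58 of MT-TL1 higher. NAT10-WT had 2 of 42 (3.97%), with A9 of MT-TE higher. K290A had 5 of 46 (2.35%), with C base 52 of MT-TK higher and A9 of MT-TW, MT-TG and MT-TL2 lower. In NAT10(-) (1.87% of all positions), G641E (1.59%), E389L (1.7%) and H537A (2.42%) no position other than C34 was called. This test counts reads only and takes no account of the spread between libraries.

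The cytidines were also examined one by one for a C>T change at low level. Of 275 cytidines 271 were covered in all libraries, and their median C>T share was 0.0385% in mock and 0.0887% with NaCNBH3. The mean was higher with NaCNBH3 at 252 cytidines, and 15 were higher in 16 of 16 pairs. Only C34 of MT-TM and C base 52 of MT-TK differed by 0.5 percentage points or more.

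C base 52 of MT-TK lies in the T arm, 2 bases 5′ of the adenosine read with mismatches at base 54. Its C>T share was 0.0421% ± 0.0294 in mock (0% to 0.0907%) and 0.830% ± 0.267 with NaCNBH3 (0.426% to 1.49%), without overlap. With the minimum mismatch share lowered to 0.1%, its log2 odds rose by 4.07 ± 0.20 (SE, limma adjusted p = 3.0e-10). The base was named after its values were seen, and it met this minimum through the NaCNBH3 libraries (mean mismatch share 0.0678% in mock). This p-value is therefore no independent support for the rise. At that setting 25 of 103 mitochondrial tRNA positions were called, 24 of them higher, beside 16.9% of all positions. C base 41 of MT-TQ had the next largest difference, 0.183 percentage points.

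To determine whether any of these cytidines behaved as an ac4C site, a rule adapted from that of the study was applied. It was limited here to C>T, asked first for a share that NaCNBH3 raised in Wildtype, in NAT10-WT or in both, and then for a lower share in NAT10(-) than in each of them. At a minimum share of 1% the first step was met by 1 mitochondrial tRNA cytidine, C34 of MT-TM, and the second by none. At a minimum of 0.1% the first step was met by 6, C base 52 of MT-TK among them, and the second again by none. Fisher's exact test was run on each replicate with a call needed in both, and a cytidine under the minimum share was not tested.

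Finally, genotypes were compared over the 43 fitted positions, with the mock and NaCNBH3 fraction of each RNA averaged. These 7 comparisons share the NAT10-WT libraries and are not independent of each other. In the comparison of NAT10-competent with NAT10-deficient cells none of 43 positions was called by limma, beside 6.47% of all positions, and 5 had an unadjusted p under 0.05. With a replicate block 1 was called, A58 of MT-TS1 at -0.41 ± 0.11 log2 odds (limma adjusted p = 0.0437), beside 8.92% of all positions. That SE holds the spread between replicates of a genotype and not that between the genotypes of a class. The exact permutation p for A58 of MT-TS1 was 0.118 (unadjusted). Deficient genotypes read from 7.00% (H537A) to 21.7% (K290A) there, a range that holds both competent genotypes. By exact permutation over 4 against 12 RNA samples, run on 27 positions, A9 of MT-TD had the smallest unadjusted p, 0.033, with a difference of -0.78 log2 odds (limma adjusted p = 0.156). The permutation exchanged RNA samples singly, although each genotype gave 2 of them. Wildtype read 9.494%, 8.333%, 13.16% and 14.05% at this base (mock replicates 1 and 2, then NaCNBH3 replicates 1 and 2). NAT10-WT, also competent, read 21.48%, 15.96%, 21.26% and 9%. The deficient genotypes read from 5.674% to 28.09%, a range that holds both competent genotypes. Depth at A9 of MT-TD was 32 to 897 reads. Without K290A replicate 2 this base was called by limma as well, at -0.91 ± 0.20 (limma adjusted p = 0.0204), beside 9.34% of all positions.

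None of the 43 positions was called in NAT10(-) (0.676% of all positions), E389L (0.644%), H537A (0.58%) or G641E (1.35%) against NAT10-WT by limma, where 0, 0, 2 and 3 positions had an unadjusted p under 0.05. The calls that were made fell on K290A, FKBP and Wildtype, and on 4 positions. Helicase against GNAT mutants gave 1 call.

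G34 of MT-TH, the histidine tRNA, was lowest in K290A, with 1.32%, 1.74%, 1.22% and 0.637% (mock replicates 1 and 2, then NaCNBH3 replicates 1 and 2), and in FKBP, with 1.55%, 1.35%, 2.00% and 1.31%. NAT10-WT had 5.80%, 4.16%, 5.22% and 3.60%, above all libraries of both. Wildtype, at 3.90%, 3.27%, 2.49% and 2.35%, also lay above all libraries of K290A and FKBP, and its highest value lay within the range of NAT10-WT. The highest library of all was H537A NaCNBH3 replicate 2 at 9.52%, and the other genotypes, NAT10(-), E389L and G641E, read from 3.68% to 6.66%. The difference in log2 odds from NAT10-WT was -1.94 ± 0.26 in K290A (SE, limma adjusted p = 0.0033), where 4 of 43 positions were called (2.45% of all positions). In FKBP it was -1.58 ± 0.26 (limma adjusted p = 0.0128), the only call of 43 (1.45% of all positions). Without FKBP replicate 2 or without NAT10-WT replicate 1 the call in FKBP was lost.

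The same base gave the call between helicase and GNAT mutants, -1.32 ± 0.18 log2 odds (limma adjusted p = 0.0142), 1 of 43 beside 0.258% of all positions. E389L, the other helicase mutant, had 4.0%, 4.2%, 4.54% and 3.68% and overlapped with G641E at 4.67%, 5.65%, 3.89% and 5.32%. The call was lost without E389L replicate 1 (limma adjusted p = 0.0801), H537A replicate 1 (0.0525), H537A replicate 2 (0.0605) or G641E replicate 2 (0.0716). No position was called with genotypes pooled by class (Wildtype with NAT10-WT, FKBP with NAT10(-), helicase mutants, GNAT mutants). With a replicate block 3 were called, G26 of MT-TA at 0.58 ± 0.10, C32 of MT-TS1 at 0.59 ± 0.08 and G34 of MT-TH, beside 0.998% of all positions.

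MT-TS1, the serine (UCN) tRNA, had 2 bases called in K290A, in opposite directions. A58 was highest there, with 20.8%, 17.4%, 21.7% and 16.7%, against 8.75%, 9.25%, 8.48% and 8.47% in NAT10-WT, a rise of 1.19 ± 0.24 log2 odds (limma adjusted p = 0.0305). H537A had 7.00%, 8.06%, 9.34% and 8.11%, overlapping with NAT10-WT, and FKBP 18%, 12.1%, 19.2% and 13%. The call at A58 was lost without K290A replicate 1, NAT10-WT replicate 1 or NAT10-WT replicate 2 (limma adjusted p = 0.115 to 0.180). A37 was lower in K290A, with 0.615%, 0.726%, 1.03% and 0.261%, against 0.936%, 2.45%, 2.55% and 2.00% in NAT10-WT (-1.79 ± 0.32, limma adjusted p = 0.0185). Wildtype was lower than NAT10-WT at A37 as well, with 0.386%, 0.464%, 0.729% and 0.842% (-1.72 ± 0.32, limma adjusted p = 0.0104, 1 of 43 beside 5.63% of all positions). G641E was also low at A37, with 0.708%, 0.737%, 0.810% and 1.09% (-1.17 ± 0.32), and FKBP had 0.653%, 1.09%, 1.29% and 1.36% (-0.85 ± 0.32), but neither was called (limma adjusted p = 0.191 and 0.403). The call in G641E was made without either K290A replicate (limma adjusted p = 0.0334, beside 3.16% of all positions without replicate 2) and with 5 added to each count (0.0386). The other genotypes, NAT10(-), E389L and H537A, read from 1.36% to 2.61%, within or just above the range of NAT10-WT. Leaving out either Wildtype replicate or NAT10-WT replicate 2 took the Wildtype call away, and NAT10-WT replicate 2 that in K290A.

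G26 of MT-TA, a base with a low mismatch share throughout, was higher in K290A with 5.40%, 6.77%, 7.28% and 3.78%, against 2.50%, 3.69%, 3.48% and 3.75% in NAT10-WT (1.04 ± 0.15, limma adjusted p = 0.0045). The lowest K290A value, 3.78%, is that of the library that stood apart, and it lay just above the highest NAT10-WT value. Without K290A replicate 2, 7 of 43 positions were called in K290A, beside 4.86% of all positions: the same 4 and A9 of MT-TF, A9 of MT-TA and G26 of MT-TN, all 3 higher. With a replicate block 6 were called (3.12% of all positions), the 4 together with A9 of MT-TF at 1.53 ± 0.31 and C32 of MT-TS1 at 0.70 ± 0.11. In Wildtype the block added A9 of MT-TF at 1.28 ± 0.31 (2 of 43 called, 7.34% of all positions).

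A9 of MT-TF, the phenylalanine tRNA, had the widest spread of the position 9 levels. It read 56.7%, 50.8%, 63.2% and 18.9% in K290A, 43.6%, 35.7%, 48.3% and 40.3% in Wildtype, and 23.7%, 21.1%, 27.4% and 20.2% in NAT10-WT. The K290A library that stood apart thus lay below all NAT10-WT libraries at a base where the other 3 K290A libraries were above all of them. At G26 of MT-TN K290A had 20.7%, 19.9%, 28.2% and 9.78%, and the last lay within the range of NAT10-WT (8.815% to 11.65%) while the other 3 lay above it. Whether library depth or the makeup of the library has a part in these differences was not tested.

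**Figure D5:**
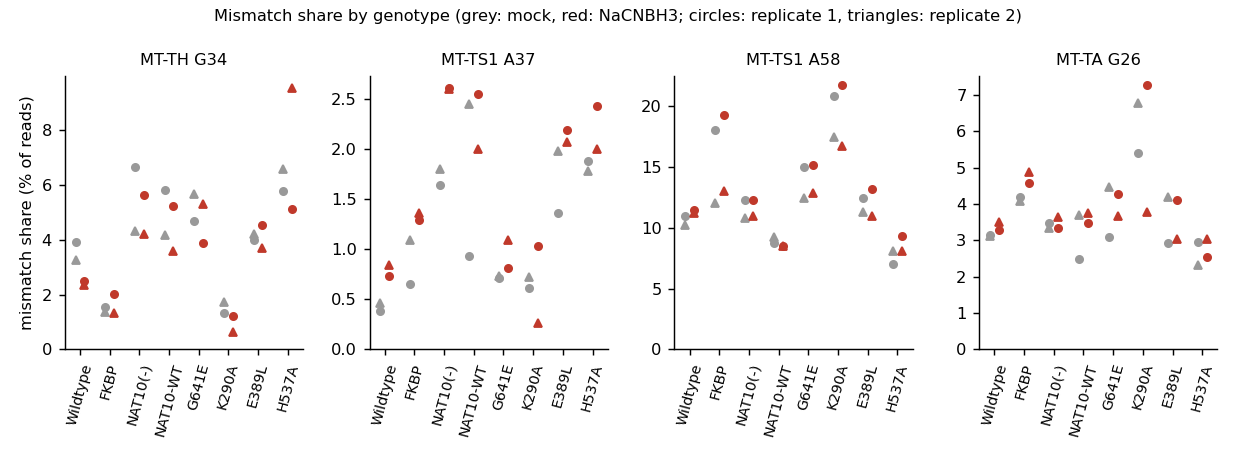
Mismatch share (percent of reads, each axis from 0) by genotype at the 4 positions called in a genotype comparison, with mock libraries in grey, NaCNBH3 libraries in red, circles for replicate 1 and triangles for replicate 2. K290A is low at G34 of MT-TH (0.637% to 1.74%) and high at A58 of MT-TS1 (16.7% to 21.7%).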

How the data were processed

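The deposited tables hold raw read counts of A, T, C and G per position and strand. Per the labels and the study's methods, the authors removed adapters, used a 10-nucleotide molecular identifier to remove duplicates, aligned to GRCh38 (Ensembl 110 annotation) and listed positions with at least 30 reads. Tools in the submitters' notes on processing are STAR 2.7.9a, SAMtools 1.6, UMI-tools 1.1.5 and cutadapt 4.2. Labels and methods differ on whether RNA was fragmented before or after adapter ligation. PCR duplicates were removed by identifier, and intervals cover counting error only.

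From these counts, mismatch shares were computed per library. Positions with 30 reads in all 32 libraries and a pooled mismatch share of at least 1% (3106 in all) were fitted by limma 3.58.1 in R 4.3.3 on log2((dominant mismatch + 0.5)/(reference + 0.5)), with Benjamini-Hochberg adjustment over all of them and a threshold of 0.05. NaCNBH3 against mock used 1 coefficient per RNA sample. Genotypes were compared on the mean of both fractions. The study's two-sided Fisher's exact test (SciPy 1.17.1) was also run. Both were tested on simulated data.

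Named positions were C34 of MT-TM, listed modifications with a mock mean of 5% or more, the 10 highest others, the 10 smallest p for NaCNBH3 and up to 3 calls per genotype contrast. MT-TK C base 52, MT-TT A9 and U base 18, MT-TH base 1, MT-TR A16 and MT-TQ A58 were named after their values were seen. The members, lists and tests were chosen with earlier results of these data known. The labels give a replicate number, which was treated here as a possible batch. Deviations of same-numbered samples correlated between genotypes with r of -0.193 to 0.559 over all fitted positions (28 pairs, median 0.304, 23 over 0.1), so the number was also fitted as a block.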

Additional observations from a re-analysis of the deposited data

Results flagged for a closer look

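C base 52 of MT-TK carried a C>T signal outside the main measurement, since it stayed under the minimum share of 1% that the fit required. Its C>T share was 0.830% ± 0.267 (SD, n = 16 NaCNBH3 libraries) against 0.0421% ± 0.0294 in the 16 mock libraries, and it was higher in 16 of 16 pairs. Reads of this gene are also counted at an identical copy on chromosome 1, where the mismatch share was the same to within 0.0412 percentage points in every library.

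The nuclear copy of MT-TW on chromosome 1, which no comparison used, had a median depth of 943% of that at the mitochondrial gene (413% to 1482% over the 32 libraries). At the other 7 copies that percentage lay between 97.8% and 133%.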

How the results depend on the processing

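C34 of MT-TM stayed called for NaCNBH3 against mock under all alternatives and in all 18 fits that left out an RNA sample or a replicate number (log2 odds 8.44 to 8.76). None of the 11 calls at named positions changed sign under an alternative, whereas 27 of the 42 fitted positions other than C34 had opposite signs for NaCNBH3 against mock in replicates 1 and 2, among them A9 of MT-TA and G26 of MT-TN. Counts of calls moved more, and the causes were not tested. For NaCNBH3 against mock (4 calls) there were 8 with 5 added to each count, 25 at a minimum share of 0.1% and 1 to 17 when a sample or replicate number was left out. At 0.1%, with 103 positions tested, calls against NAT10-WT fell to 0 in Wildtype, FKBP, K290A and helicase against GNAT mutants. In NaCNBH3 libraries alone they were 0 in Wildtype and FKBP, 1 in K290A and 0 between mutant classes. With a replicate block they were 2 in Wildtype, 1 between competent and deficient cells and 3 between mutant classes, and the block moved no other count by over 1.5 times. Fisher's exact test in NaCNBH3 libraries gave 7 in Wildtype, 5 in FKBP, 4 in NAT10(-), 4 in G641E, 2 in E389L and 1 in H537A. With 5 added, G641E had 1 and mutant classes 0. Mutant classes also gave 2 at 100 reads, 0 in mock libraries alone and 0 with genotypes pooled by class. Leaving samples out gave 0 to 1 in Wildtype, in FKBP and in G641E, 2 to 7 in K290A, 0 to 1 between competent and deficient cells and 0 to 3 between mutant classes. Omitting a whole replicate number left the comparisons with NAT10-WT no residual degrees of freedom.

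By Fisher's exact test per genotype, a minimum of 0.1% gave 10 calls in Wildtype, 7 in FKBP, 5 in NAT10(-), 2 in G641E and 4 in E389L, and 100 reads gave 5 in FKBP. On 1 replicate alone, where a call needs no agreement, K290A had 18 to 19 calls, FKBP 4 to 18, E389L 1 to 15, NAT10(-) 3 to 14, NAT10-WT 2 to 13, Wildtype 7 to 12, G641E 4 to 12 and H537A 2 to 11. Cytidines that NaCNBH3 raised were 6 at 0.1%. A9 of MT-TD passed the threshold between competent and deficient cells by the permutation test (unadjusted) and by limma without K290A replicate 2. Median depth was lowest in MT-TW, MT-TP, MT-TY and MT-TT (710 to 982 reads), and the depth cap hides differences in depth of MT-TM and MT-TV.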

Other observations

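The drop in depth at A37 varied between libraries of the 4 tRNAs that showed it. At A37 of MT-TF it averaged 22.2% (13.9% to 34.9%) in the 16 libraries of replicate 1 and 14.5% (7.88% to 26.1%) in those of replicate 2, and at A37 of MT-TY 27.4% (19.9% to 39.9%) and 20.4% (12% to 28.8%). MT-TW had 32.9% and 32.5%, and MT-TS1 29.5% and 27.7%. At these last 2 the genotypes lay apart, where the 4 libraries of a genotype are 2 RNA samples in 2 fractions. At A37 of MT-TW the 4 libraries of each genotype ranged from 16.4% to 24.1% in K290A, 18.1% to 26.5% in G641E, 21.4% to 25% in FKBP and 19.4% to 28.3% in Wildtype. The drop was larger in H537A (29.2% to 53.2%), E389L (37% to 49.9%), NAT10-WT (40.2% to 45.7%) and NAT10(-) (46.6% to 49.5%). In H537A it was 53.2% and 50.4% in mock but 31.2% and 29.2% with NaCNBH3, near the highest Wildtype library. The nuclear copy of MT-TW had a median depth of 943% of that at the mitochondrial gene, and the drop at that copy is not given. A37 of MT-TS1 divided the same genotypes, with 13.7% to 24.2% in K290A, 18.7% to 24.5% in Wildtype, 20.7% to 24.5% in FKBP and 22.9% to 24.6% in G641E, against 29.4% to 44.4% in H537A, 32.7% to 35.8% in E389L, 33.1% to 38.5% in NAT10-WT and 35% to 40.2% in NAT10(-). Each side held one NAT10-competent genotype, one helicase mutant and one GNAT mutant. At A37 of MT-TY and MT-TF the ranges overlapped, as in Wildtype (17.1% to 25.04%) and NAT10-WT (22.6% to 32.6%) at MT-TY. K290A mock replicate 2 was the lowest library at A37 of MT-TF, MT-TW and MT-TS1. Depth and transduction differ between these samples too, and their part was not tested. These values were compared after they were seen, and no test was made.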
